A study of Camellia sinensis with 6 samples.

Results

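The unigenes described here are those whose best protein match in the Nr database carries the name of a Calvin cycle or photorespiration enzyme, of a Rubisco subunit, or of a protein that activates, assembles or methylates Rubisco. They are called members below, and there were 143 of them among 127252 unigenes, in 21 enzyme groups. The name search also took in the cytosolic forms of GAPDH, phosphoglycerate kinase and fructose-bisphosphatase, which serve glycolysis and sucrose synthesis. Of the members, 61 were contigs of clusters and 82 were single unigenes, 112 clusters and singles in all, and 14 were shorter than 300 nt. Their best matches were most often grape (48 members) and tomato (20). The unigenes came from a de novo assembly, so they have no genome position here.

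The Calvin cycle fixes CO2 in the chloroplast stroma, and photorespiration recovers the carbon that is lost when Rubisco takes up oxygen in place of CO2. Rubisco joins CO2 to ribulose bisphosphate, phosphoglycerate kinase and the chloroplast glyceraldehyde-3-phosphate dehydrogenase (GAPDH) reduce the product to triose phosphate, and the bisphosphatases, transketolase, the pentose phosphate isomerase and epimerase and phosphoribulokinase rebuild the acceptor. Photorespiration starts with phosphoglycolate phosphatase and runs through glycolate oxidase in the peroxisome, glycine decarboxylase in the mitochondrion and hydroxypyruvate reductase in the peroxisome.

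The leaves came from the tea cultivar ‘Huangjinya’, whose young leaves are yellow in strong light and green in weak light. All plants were 2 years old and grew in 1 field, and the third leaf from the top was taken. Control plants in full sunlight, with yellow leaves, gave the libraries Y1 to Y3. Libraries Y+S1 to Y+S3 came from plants that had stood for 10 days under a shade net, which cut the light by about 45% and turned the leaves green. Different plants were used for each library. The net covered 1 group of plants, and an uncovered group of that field was the control, so shading cannot be told apart from position in the field.

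The libraries held 10022397 to 18742989 fragments counted on unigenes, and no pair of libraries was identical. For its own tests the study set aside Y1 and Y+S3, which had deviated in a principal component analysis, so every comparison was made with Y2 and Y3 against Y+S1 and Y+S2 (4 libraries) and again over all 6. Codes in the sample descriptions conflict with the deposited key for Y1 and Y3 and for Y+S1 and Y+S3. The key was followed, and since both readings keep the groups, tests over the 6 libraries do not depend on it, while those over 4 do. Light-harvesting chlorophyll proteins, the mesophyll markers, took 1.37% to 1.73% of counts in sunlight and 0.970% to 2.87% under shading. Unigenes of dividing cells (histones, cyclins and PCNA) took 0.652% of counts in Y1 and 0.134% to 0.277% in the other 5 libraries, and heat shock proteins took 0.233% of counts in Y+S2 and 0.236% in Y+S1, against 0.0600% to 0.101% elsewhere. In whole leaves, fewer cells of a type and less RNA per cell cannot be told apart.

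Levels below are FPKM, fragments per kb of unigene scaled to the fragments of the library, which can be compared between unigenes. Normalised CPM, counts scaled to the library total and then by TMM, were used to compare libraries. TMM scaling matters here, because its factors were 0.761 for Y1 and 0.695 for Y+S3 but 1.08 to 1.29 for the others, so it raises the values of Y1 and Y+S3. Fold changes are log2 values of shading over sunlight from edgeR, with standard errors, and an adjusted p of 0.05 was the threshold.

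Members spanned the whole range of expression. Their mean FPKM over the 6 libraries was under 1 for 33 members, 1 to 10 for 55, 10 to 100 for 33, 100 to 1000 for 19 and 1000 or more for 3. Together they took 3.51% to 3.84% of all counts in sunlight and 2.56% to 4.26% under shading, most of it from the Rubisco small subunit.

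**Figure D1:**
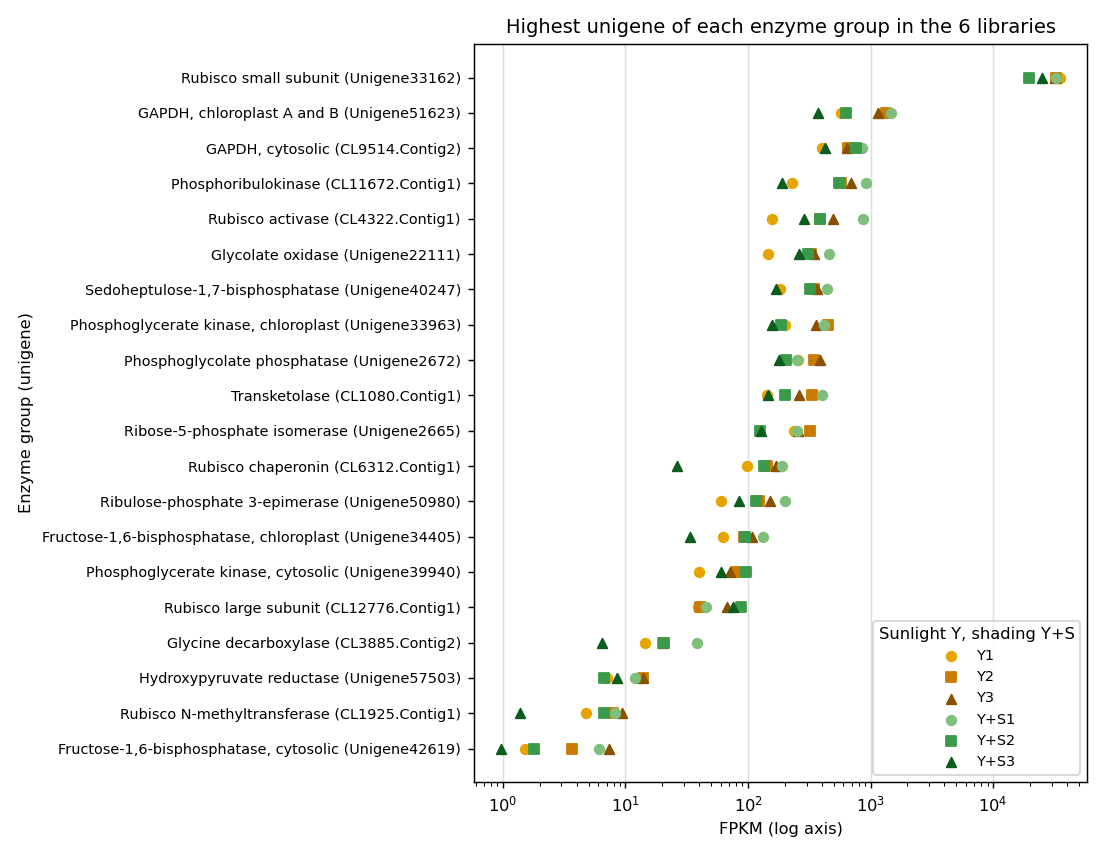
FPKM (log axis) of the highest unigene in each of 20 enzyme groups in every library, sunlight in brown tones and shading in green tones, 1 point per library. The small subunit Unigene33162 lies at 19665 FPKM or more in all libraries, and in most rows the points of both groups are mixed, with Y1 and Y+S3 at the low end and Y+S1 at the high end. FPKM carry no TMM scaling, which raises Y1 and Y+S3. By normalised CPM, Y1 was lowest for 10 of the 55 members with a mean FPKM of 10 or more, Y+S3 for 14 and Y+S2 for 20.

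No member passed the threshold in edgeR. Over the 4 libraries 108 members passed the filter on low counts, 58 were higher and 50 lower under shading, and 0 were called by edgeR, with a smallest adjusted p of 0.112. Among all 64281 unigenes tested, 34 were called (0.0529%). At an unadjusted p under 0.05 there were 15 members (13.9%), 9 higher and 6 lower, against 14.9% of all unigenes. Their median log2 fold change was 0.03, the same as that of all unigenes. Over all 6 libraries 101 members were tested, 46 higher and 55 lower, and 0 were called by edgeR (smallest adjusted p 0.512), as were 0 of all 59300 unigenes (0%). At an unadjusted p under 0.05 edgeR had 7 members over the 6 libraries (6.93%) and 8.06% of all unigenes. The median was −0.10 for the members and 0.04 for all unigenes.

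DESeq2 over the 4 libraries called 5 of the 83 members to which it gave an adjusted p (6.02%), 4 of them higher, against 2.78% of all unigenes. These were 3 unigenes of Rubisco activase, a chaperonin alpha unigene and a large subunit unigene that matches rice. Over the 6 libraries DESeq2 called only CL9280.Contig2, a large subunit unigene, against 0.973% of all unigenes. Over the 6 libraries the normalised CPM of all 3 shading libraries lay above all 3 sunlight libraries for 5 members (4.95%, all unigenes 6.67%) and below them for 9 (8.91%, all unigenes 7.28%), so neither count is far from the background. By FPKM there were 3 such members above (all unigenes 4.07%) and 12 below (all unigenes 7.83%), and without the filter on low counts, by normalised CPM, 7 above (all unigenes 6.96%) and 11 below (all unigenes 5.58%). Without the filter on low counts, edgeR over the 4 libraries called 7 of 142 members (4.93%, all unigenes 0.757%), all higher. Of these, 5 matched rice and 2 were the activase unigenes Unigene50837 and CL4322.Contig2.

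**Figure D2:**
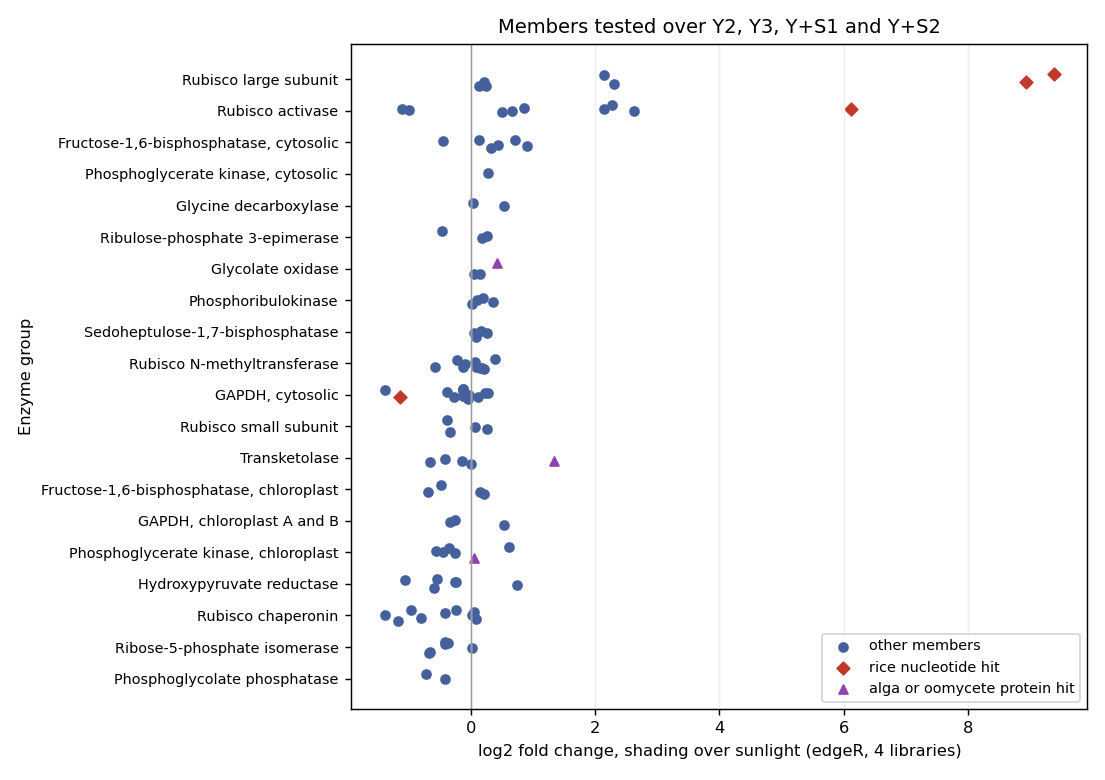
log2 fold change of shading over sunlight (edgeR, 4 libraries) of the 108 members tested, 1 point per unigene, by enzyme group. Most points lie within 1 of 0, and the points beyond 6 are members that match rice.

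The 2 shading libraries that the study kept differed from each other in these genes. Among the 55 members with a mean FPKM of 10 or more, the normalised CPM of Y+S1 was above that of Y+S2 in 46 (83.6%), while this held for 55.2% of the 10899 unigenes of that level. The median fold between Y+S1 and Y+S2 was 1.66 for the members and 1.25 for all these unigenes, and 14 members (25.5%) differed by 2-fold or more, against 11.2% of all these unigenes. Between Y2 and Y3 the median fold was 1.14 for the members and 1.18 for all these unigenes, and 0 of the 55 members differed by 2-fold or more, against 4.91%. Y+S1 was the highest of the 6 libraries for 26 of these members and Y+S2 for 0, while Y+S2 was the lowest for 20. Set against the mean of Y2 and Y3, the 55 members had a median log2 ratio of 0.18 for Y+S1 and −0.36 for Y+S2. The ratio was −0.31 for Y+S3 and −0.09 for Y1. The share of counts from light-harvesting proteins was likewise higher for Y+S1 (2.87%) than for Y+S2 (1.35%). Its part in these differences was not tested.

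**Figure D3:**
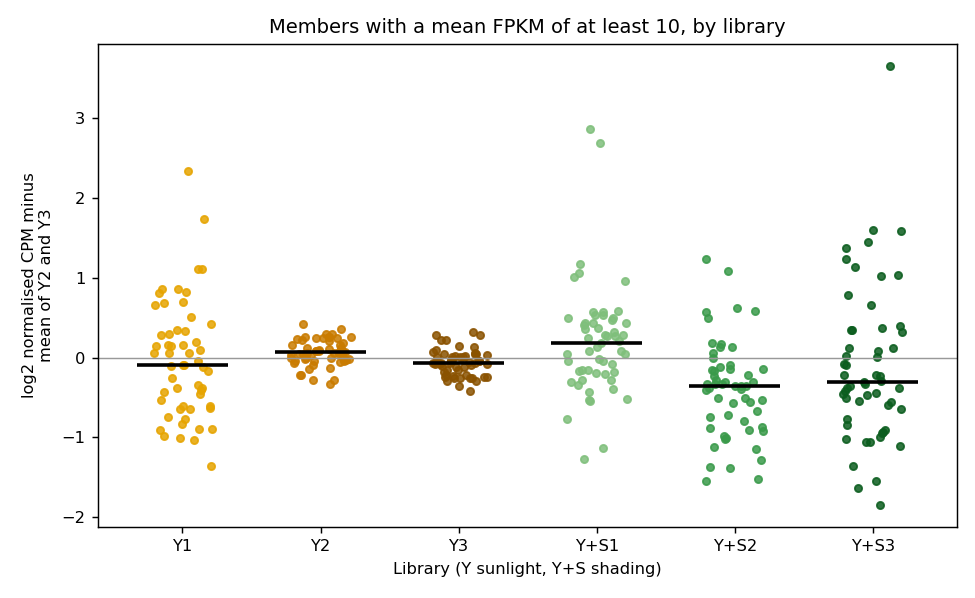
log2 normalised CPM of 55 members in each library minus their mean in Y2 and Y3, 1 point per member, with the median as a black line. The points of Y2 and Y3 mirror each other around 0, because their own mean is the baseline. Those of Y+S1 have a median of 0.18, and those of Y+S2 and Y+S3 have medians of −0.36 and −0.31.

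The calls therefore depended on which shading library was used. Without Y+S1, 22 of 119 members were called (18.5%, all unigenes 5.03%), 9 higher and 13 lower, and the median log2 fold change was −0.35, while that of all unigenes was near 0. Of the 22, 7 have a best match in rice, an alga or an oomycete, and all 7 were among the 9 higher ones. The lower members included chloroplast GAPDH (Unigene51623, −1.13), phosphoglycerate kinase (Unigene33963, −1.30) and ribose-5-phosphate isomerase (Unigene2665, −1.39). Without Y+S2, 15 of 117 were called (12.8%, all unigenes 9.55%), 10 higher and 5 lower, and the median was 0.09. Of the 15, 3 match rice. Here the higher members included the main Rubisco activase contig (CL4322.Contig1, 1.02) and glycine decarboxylase (CL3885.Contig2, 0.97). In each of these fits the lone shading library was assumed to vary like the close pair Y2 and Y3, so the calls compare single libraries with sunlight. Both fits called 6 members in common, namely the activase unigenes Unigene50837 and CL4322.Contig2, the chaperonin unigenes Unigene9307 and Unigene6418, and an activase and a large subunit unigene that match rice, Unigene60200 and Unigene49239. These were named after their values were seen. Without Y2 and without Y3, edgeR called 0 of all 79374 and 0 of all 78425 unigenes tested, members included.

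Rubisco is built from small subunits encoded in the nucleus and large subunits encoded in the chloroplast. The small subunit Unigene33162 (713 nt, matched to tea) had 34829.7, 32369.9 and 32177 FPKM in sunlight and 32552, 19665 and 24872 FPKM under shading, given here and below in the order of the library numbers. It was by far the most abundant member in every library, with 33126 ± 1479 FPKM (SD, n = 3) in sunlight and 25696 ± 6483 FPKM (SD, n = 3) under shading. Y+S1 lay within the sunlight range, and Y+S2 and Y+S3 lay below it. The log2 fold change was −0.33 ± 0.49 over the 4 libraries (edgeR adjusted p = 0.808) and −0.35 ± 0.72 over 6. By normalised CPM the groups overlapped more widely, from 19461 to 33206 in sunlight and from 11163 to 26114 under shading.

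Of the next small subunit unigenes, Unigene33163 (429 nt) had 5555, 3629 and 4059.5 FPKM in sunlight and 3701, 2277 and 2922 FPKM under shading. Unigene57993 had 1634, 2050.4 and 1971 FPKM in sunlight and 2757, 1537 and 889 FPKM under shading. The shading values of Unigene57993 enclosed those in sunlight, and its log2 fold change was 0.07 ± 0.41. Of 7 small subunit members, 4 were tested, 2 higher and 2 lower over the 4 libraries, and the remaining 3 matched rice. Over the 6 libraries 0 were higher and 4 lower, with a median of −0.47 and 0 at an unadjusted p under 0.05.

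The large subunit had far lower levels. Its gene is transcribed in the chloroplast, whose mRNA mostly lacks poly(A) tails, so its level in mRNA libraries cannot be compared with that of nuclear genes. CL12776.Contig1, whose best match is the large subunit of tea, had 39.0, 40.6 and 67.6 FPKM in sunlight and 45.1, 88.2 and 75.6 FPKM under shading, and its log2 fold change was 0.24 ± 0.33. CL2275.Contig2 and Unigene57402 had the same order of libraries within the sunlight group, with Y3 the highest, and reached 57.4 and 40.6 FPKM in Y+S2. Groups overlapped for these 3 unigenes. Of 8 large subunit members, 7 were tested over the 4 libraries, 7 higher and 0 lower, with 4 at an unadjusted p under 0.05 (57.1%, all unigenes 14.9%). Those 7 include the rice-matched Unigene49239. Over the 6 libraries 5 were tested, 5 higher and 0 lower, with 2 at an unadjusted p under 0.05 (40%, all unigenes 8.06%). Contigs of the same cluster among them are not independent, and edgeR called 0.

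A pair of large subunit contigs with weaker matches stood higher in every shading library. CL9280.Contig2 had 5, 8 and 4 counts in sunlight and 54, 33 and 89 counts under shading, and CL9280.Contig1 had 4, 2 and 2 against 21, 12 and 37. Their log2 fold changes over the 4 libraries were 2.14 ± 0.52 (edgeR adjusted p = 0.180) and 2.30 ± 0.71 (adjusted p = 0.223), and over the 6 libraries that of CL9280.Contig2 was 3.32 ± 0.81 (adjusted p = 0.512). DESeq2 over the 6 libraries called CL9280.Contig2 (adjusted p = 0.0170) and not CL9280.Contig1 (adjusted p = 0.105). The best protein match of both is Lomatia, a southern hemisphere shrub, and not tea.

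Rubisco activase frees inhibited Rubisco sites of bound sugar phosphates at the cost of ATP, and it is known in several plants as heat sensitive. The main contig CL4322.Contig1 (2139 nt) had 158, 389.7 and 492 FPKM in sunlight and 862, 384 and 288 FPKM under shading. By FPKM Y+S1 was above all other libraries, while Y+S2 and Y+S3 lay within the sunlight range. FPKM carry no TMM scaling, which raises Y1 and Y+S3, so the rank of Y+S3 is given for FPKM only. The log2 fold change was 0.50 ± 0.45 over the 4 libraries (edgeR adjusted p = 0.652) and 0.61 over 6 (edgeR adjusted p = 0.768). The second contig of this length, CL4322.Contig3, was likewise high by FPKM in Y+S1 only, with 287 FPKM there and 73.9 to 151 FPKM in the other 5 libraries.

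In 3 shorter and less abundant activase unigenes the contrast was larger. Unigene50837 (724 nt) had 7.74, 15.4 and 11.2 FPKM in sunlight and 86.4, 32.3 and 3.58 FPKM under shading. CL4322.Contig2 (321 nt) had 5.49, 3.47 and 5.91 FPKM in sunlight and 42.7, 14.6 and 2.23 FPKM under shading. CL8789.Contig1 (401 nt) had 7.39, 3.01 and 4.23 FPKM in sunlight and 26.2, 8.58 and 2.23 FPKM under shading. For each of them Y+S1 and Y+S2 were above all sunlight libraries and Y+S3 was below all of them by FPKM. By normalised CPM Y+S3 was below all sunlight libraries for Unigene50837 only, and lay within the sunlight range for the other 2, while Y+S2 of CL8789.Contig1 (2.74) lay within that range too.

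Over the 4 libraries the log2 fold change was 2.14 ± 0.52 for Unigene50837, 2.63 ± 0.61 for CL4322.Contig2 and 2.28 ± 0.61 for CL8789.Contig1, with edgeR adjusted p of 0.175, 0.166 and 0.194. DESeq2 called all 3, with adjusted p of 0.00199, 0.00309 and 0.0247. Over the 6 libraries the values were 1.69 ± 0.82, 1.81 ± 0.83 and 1.09 ± 0.80, and edgeR and DESeq2 called none of them. The heat shock list was highest in the same 2 libraries. Its 33 unigenes summed to 811 to 854 normalised CPM in sunlight, and under shading to 2162, 1852 and 883. Of 18 heat shock unigenes tested over the 4 libraries, 12 were higher and 6 lower, and edgeR called 2 (all unigenes 0.0529%). The part of this state in the activase values was not tested. Fragments that align to several contigs of a cluster were not counted, which makes the values of similar contigs uncertain.

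**Figure D4:**
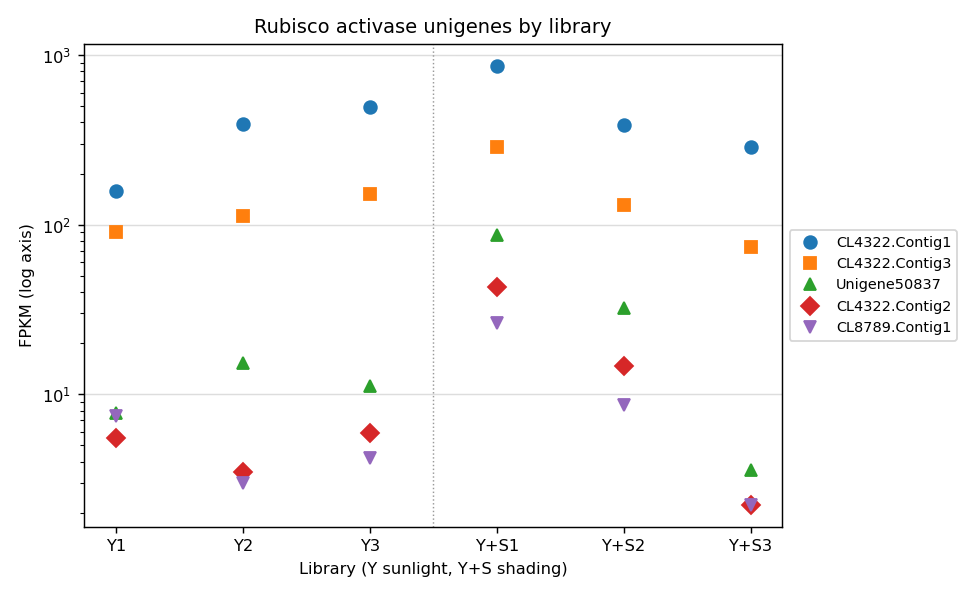
FPKM (log axis) of 5 Rubisco activase unigenes in each library. All 5 are highest in Y+S1, where Unigene50837 reached 86.4 FPKM, and the 3 shorter ones are at their lowest in Y+S3, with 2.23 to 3.58 FPKM.

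Of 15 activase members 9 were tested over the 4 libraries, 7 higher and 2 lower, with 4 higher ones at an unadjusted p under 0.05 (44.4%, all unigenes 14.9%). These 4 were the 3 shorter unigenes above and Unigene60200, which matches rice and had 6, 0 and 1 counts in sunlight and 37, 90 and 1 counts under shading. For comparison, 10 of the 14 members named Rubisco large subunit N-methyltransferase, the enzyme that methylates a lysine of the large subunit, were tested, 6 higher and 4 lower. Their most abundant unigene, CL1925.Contig1, had 4.79, 7.84 and 9.30 FPKM in sunlight and 8.25, 6.71 and 1.38 FPKM under shading.

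The chloroplast chaperonin folds newly made large subunits before they join the small subunits. Its most abundant unigene, CL6312.Contig1, a beta subunit of 2344 nt, had 97.5, 143 and 168 FPKM in sunlight and 188, 133.9 and 26.2 FPKM under shading. The log2 fold change of 0.02 ± 0.31 was near 0, while Y+S3 was lower than all other libraries. A long alpha subunit unigene, Unigene9306 (2211 nt), had 43.0, 45.3 and 44.9 FPKM in sunlight and 36.1, 34.0 and 12.6 FPKM under shading. All shading values of Unigene9306 lay below all sunlight values, with a log2 fold change of −0.41 ± 0.24 over the 4 libraries (edgeR adjusted p = 0.476) and −0.81 ± 0.36 over 6.

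Short alpha subunit unigenes had larger differences. Unigene9307 (493 nt) had 79.7, 38.9 and 31.4 FPKM in sunlight and 14.9, 12.9 and 27.7 FPKM under shading. Over the 4 libraries its log2 fold change was −1.38 ± 0.29, 2.61-fold lower, with an adjusted p of 0.157 in edgeR and 0.0272 in DESeq2. All its shading values were lower in FPKM, but by normalised CPM Y+S3 (20.1) overlapped with Y2 (18.1) and Y3 (13.1). Unigene34791 (570 nt) was lower in all shading libraries, with 6.85, 5.34 and 5.59 normalised CPM in sunlight and 2.15, 4.08 and 3.16 under shading, a log2 fold change of −0.80 ± 0.37. Of the 9 chaperonin members, all tested over the 4 libraries, 3 were higher and 6 lower, with a median of −0.41. Over the 6 libraries 7 were tested, 0 higher and 7 lower, with a median of −0.81. At an unadjusted p under 0.05 there were 2 of these 7 (28.6%, all unigenes 8.06%), and edgeR called 0. Y1, in which the dividing cell unigenes were highest, had 79.7 FPKM of Unigene9307 and 91.7 FPKM of Unigene6418, another short alpha unigene, both the maximum over libraries. Over the 4 libraries, which leave out Y1, the log2 fold change of Unigene6418 was −1.17 ± 0.28 (edgeR adjusted p = 0.173). Of 42 dividing cell unigenes tested over these 4 libraries, 10 were higher and 32 lower, with a median of −0.48. The part of dividing cells in the chaperonin values was not tested.

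In the reduction steps, chloroplast phosphoglycerate kinase Unigene33963 had 199, 452 and 359.7 FPKM in sunlight and 418, 186 and 157 FPKM under shading. Chloroplast GAPDH subunit A, Unigene51623, had 570.3, 1324 and 1143 FPKM in sunlight and 1458, 634 and 375 FPKM under shading. For both unigenes Y+S1 was close to Y2, and Y+S2 and Y+S3 were close to or below Y1. The log2 fold changes were −0.45 ± 0.45 and −0.25 ± 0.48, with edgeR adjusted p of 0.696 and 0.854. Of the 6 chloroplast phosphoglycerate kinase members, all tested, 2 were higher and 4 lower.

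Cytosolic phosphoglycerate kinase Unigene39940, which makes ATP in glycolysis, was higher in every shading library, with 33.2, 47.4 and 37.8 normalised CPM in sunlight and 54.4, 48.0 and 55.9 under shading. Its log2 fold change was 0.28 ± 0.25 over the 4 libraries (edgeR adjusted p = 0.636) and 0.42 ± 0.30 over 6, and by FPKM the groups overlapped. The main cytosolic GAPDH, CL9514.Contig2, had 402, 657 and 642 FPKM in sunlight and 857, 762 and 428 FPKM under shading, a log2 fold change of 0.27 ± 0.31. A GAPDH of tea was the reference gene for qRT-PCR in the study, and the unigene that corresponds to it was not identified here. CL9313.Contig1, another cytosolic GAPDH unigene, was lower in all shading libraries, with 22.9, 13.3 and 12.3 normalised CPM in sunlight and 9.38, 10.1 and 10.8 under shading. Of 14 cytosolic GAPDH members tested, 3 were higher and 11 lower, with a median of −0.12 and 1 at an unadjusted p under 0.05. The only member named as non-phosphorylating GAPDH, Unigene66920, had 4 counts for Y+S1, 1 for Y+S2 and 0 for the other 4 libraries, where 0 allows up to 3 counts by counting error alone.

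Most enzymes that rebuild ribulose bisphosphate had overlapping groups. Phosphoribulokinase, which makes ribulose bisphosphate, had its highest level in CL11672.Contig1, with 227, 577 and 695 FPKM in sunlight and 924, 554 and 189 FPKM under shading. Sedoheptulose bisphosphatase Unigene40247 had 181, 344 and 363 FPKM in sunlight and 445, 321 and 170.1 FPKM under shading. Transketolase CL1080.Contig1 had 143, 329.6 and 260.1 FPKM in sunlight and 402, 199 and 145 FPKM under shading. In all 3 the lowest FPKM were in Y1 and Y+S3 and the highest in Y+S1, though by normalised CPM the lowest library of the transketolase was Y+S2 (478), and the log2 fold changes were 0.20 ± 0.37, 0.09 ± 0.31 and 0.00 ± 0.43. All 4 phosphoribulokinase members and all 4 sedoheptulose bisphosphatase members were above 0 over the 4 libraries, from 0.03 to 0.37 and from 0.06 to 0.27, none at an unadjusted p under 0.05. Over the 6 libraries phosphoribulokinase had 2 members higher and 2 lower, and sedoheptulose bisphosphatase 3 higher and 1 lower.

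Ribose-5-phosphate isomerase supplies ribulose phosphate from ribose phosphate. Its most abundant unigene, Unigene2665, had 236, 323 and 254 FPKM in sunlight and 251, 124 and 128 FPKM under shading, a log2 fold change of −0.65 ± 0.42 (edgeR adjusted p = 0.510), and the groups overlapped. Of 6 isomerase members tested, 1 was higher and 5 lower, with a median of −0.41 and 0 at an unadjusted p under 0.05. Transketolase Unigene28255 (622 nt) had 51.5, 52.3 and 43.0 FPKM in sunlight and 36.2, 25.9 and 21.4 FPKM under shading. All shading values of Unigene28255 were below all sunlight values, with a log2 fold change of −0.66 ± 0.31 (edgeR adjusted p = 0.372) over the 4 libraries and −0.86 ± 0.37 over 6. The epimerase Unigene50980, which converts xylulose phosphate to ribulose phosphate, had 60.2, 124 and 152 FPKM in sunlight and 199.9, 117 and 84.1 FPKM under shading, so the groups overlapped.

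Of the bisphosphatases that release fructose phosphate, the chloroplast form Unigene34405 had 62.8, 92.1 and 108 FPKM in sunlight and 132, 95.2 and 33.6 FPKM under shading. Its log2 fold change was 0.16 ± 0.29. The cytosolic form, which takes part in sucrose synthesis, was much lower, and its highest unigene Unigene42619 had 1.53, 3.66 and 7.33 FPKM in sunlight and 6.02, 1.79 and 0.972 FPKM under shading. Of 6 cytosolic members tested, 5 were higher and 1 lower, none at an unadjusted p under 0.05.

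Phosphoglycolate phosphatase, which removes the phosphate from the product of oxygen uptake by Rubisco, had its highest level in Unigene2672 (1158 nt), with 254, 346 and 387 FPKM in sunlight and 250.3, 204 and 179.8 FPKM under shading. All shading values lay below all sunlight values, also by normalised CPM, with 379 to 393 in sunlight and 188 to 307 under shading. The log2 fold change was −0.73 ± 0.28 over the 4 libraries, 1.65-fold lower, with an adjusted p of 0.293 in edgeR and 0.251 in DESeq2, and −0.60 ± 0.37 over 6. Without Y+S1 it was called (edgeR adjusted p = 0.0409). The other phosphatase member, Unigene34709 (304 nt), was lower by −0.40 ± 0.27 and its groups overlapped.

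Glycolate oxidase, which oxidises glycolate and releases hydrogen peroxide, had 144, 329 and 344 FPKM of Unigene22111 in sunlight and 457, 307 and 259 FPKM under shading. Its log2 fold change was 0.15 ± 0.33 over the 4 libraries and 0.39 ± 0.42 over 6. Glycine decarboxylase CL3885.Contig2 (3881 nt) had 14.5, 20.2 and 20.3 FPKM in sunlight and 38.7, 20.6 and 6.40 FPKM under shading, so Y+S1 and Y+S3 lay on opposite sides of all sunlight libraries. Hydroxypyruvate reductase Unigene57503 had 7.05, 13.9 and 13.9 FPKM in sunlight and 12.01, 6.72 and 8.54 FPKM under shading, a log2 fold change of −0.58 ± 0.36. Of 6 hydroxypyruvate reductase members tested, 1 was higher and 5 lower, with 1 of the lower ones at an unadjusted p under 0.05.

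The name search did not take in unigenes whose Nr match is absent or unnamed, spells the enzyme otherwise or names another protein. KEGG orthologs of these enzymes were given to 84 unigenes of this kind, of which 55 were tested over the 4 libraries, 31 higher and 24 lower. Of these, 0 were called by edgeR (all unigenes 0.0529%) and 0 by DESeq2 (all unigenes 2.78%). At an unadjusted p under 0.05 in edgeR there were 4 (7.27%, all unigenes 14.9%). Their list was made after the values of the members were known. A mean FPKM of at least 50 was reached by 9 of them, 7 higher and 2 lower. The most abundant, Unigene34162, is a hydroxypyruvate reductase with 171, 358 and 413 FPKM in sunlight and 598, 414 and 169 FPKM under shading, and a log2 fold change of 0.37 ± 0.33. A phosphoribulokinase, Unigene10063, had 77.9, 264 and 299 FPKM in sunlight and 493, 273 and 70.6 FPKM under shading. A chloroplast GAPDH, CL9503.Contig2, had 72.5, 243 and 240.3 FPKM in sunlight and 515, 214 and 112 FPKM under shading. As among the members, Y+S1 was the highest library by FPKM for these 3 unigenes.

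Members that match another plant or an alga followed particular libraries. The best nucleotide match of 13 members was rice, and 11 of these had their most counts in Y+S2. Together they had 47, 61 and 60 counts in sunlight and 196, 597 and 24 counts under shading. The large subunit unigene Unigene49239 had 49 counts for Y+S1, 146 for Y+S2 and 0 for the other 4 libraries. Against a floor of 3 counts per library it was at least 21.6-fold higher in Y+S1 and Y+S2 than in Y2 and Y3, with an adjusted p of 0.113 in edgeR and 0.00612 in DESeq2. CL12776.Contig2, another large subunit unigene of this kind, had 18 and 122 counts in these libraries and 0 in the other 4, at least 15.8-fold higher. The exception was Unigene1168, a cytosolic GAPDH with 37, 61 and 59 counts in sunlight and 45, 42 and 21 counts under shading, which made up most of the counts of these members outside Y+S1 and Y+S2. Over the whole assembly, 602 unigenes with a rice match took 0.232% to 0.361% of counts in sunlight, and under shading 0.811%, 1.999% and 0.476%.

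The best protein match of 5 members was an alga or an oomycete, and all 5 had their most counts in Y+S3. A transketolase unigene that matches a brown alga, Unigene39980, had 4, 24 and 27 counts in sunlight and 75, 127 and 176 counts under shading, a log2 fold change of 1.35 ± 0.41 over the 4 libraries (edgeR adjusted p = 0.223) and 2.80 ± 0.84 over 6. A phosphoglycerate kinase unigene that matches an oomycete, Unigene15117, had 37, 39 and 57 counts in sunlight and 40, 112 and 280 counts under shading. Over the whole assembly, the 1956 unigenes of this kind took 0.156% to 0.503% of counts in the other 5 libraries and 1.85% in Y+S3. Both sets were defined after values had been seen. Which organism these unigenes came from was not tested, and no member had its best protein match in a fungus, an insect or a bacterium. Without the 18 members of both sets, edgeR called 0 members over 4 and over 6 libraries, and the medians were 0.02 and −0.14. In every shading library 4 of the remaining members were above all sunlight libraries (4.12%, all unigenes 6.67%) and 8 below (8.25%, all unigenes 7.28%).

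**Figure D5:**
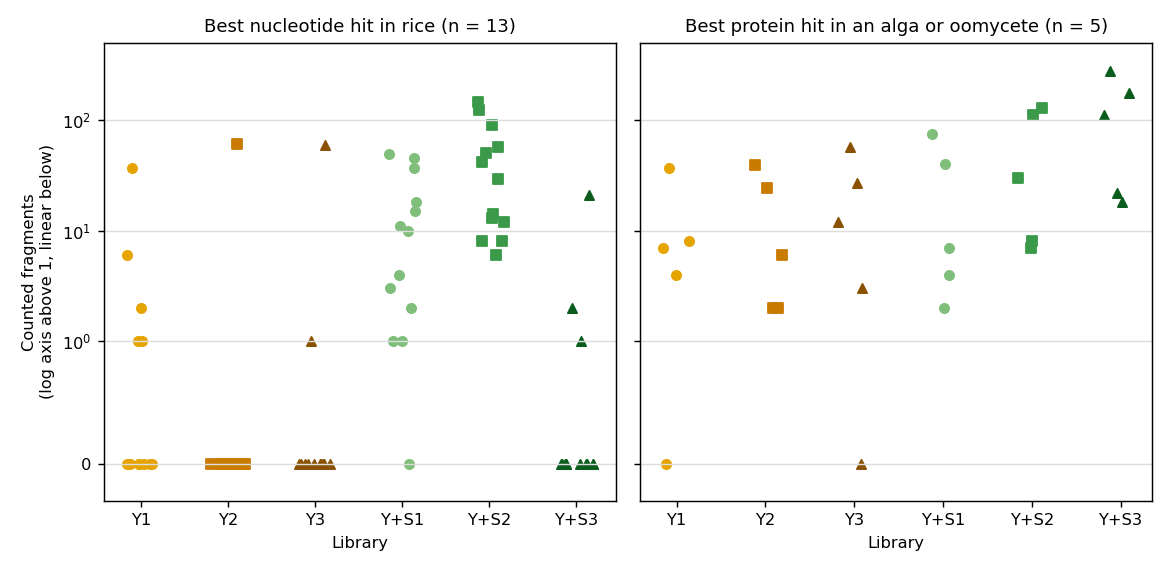
Counted fragments of members whose best nucleotide match is rice (left, 13 members) and of members whose best protein match is an alga or oomycete (right, 5 members), 1 point per member and library, on an axis that is logarithmic above 1. Most rice-matched members have counts in Y+S1 and Y+S2 and 0 elsewhere, while the others are highest in Y+S3.

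Other enzymes of these pathways were taken from a list of 88 unigenes that covers triose phosphate isomerase, aldolase, CP12, aminotransferases, serine hydroxymethyltransferase, glycerate kinase, other glycine cleavage proteins, catalase and carbonic anhydrase. Of 67 tested over the 4 libraries, 41 were higher and 26 lower, with a median of 0.17 (all unigenes 0.03). At an unadjusted p under 0.05 there were 7 (10.4%, all unigenes 14.9%), and edgeR called 1 (all unigenes 0.0529%). That unigene, CL7072.Contig2 (1140 nt), is a carbonic anhydrase, an enzyme that interconverts CO2 and bicarbonate, and it had 58, 32 and 40 counts in sunlight and 2573, 2704 and 13617 counts under shading. Its log2 fold change was 5.53 ± 0.31 over the 4 libraries, with an adjusted p of 0.0130 in edgeR and 3.45e-45 in DESeq2, and 7.39 ± 1.31 over 6 (edgeR adjusted p = 0.485).

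The other 2 contigs of this cluster, CL7072.Contig1 and CL7072.Contig3, were higher in every shading library too, with 2.58 to 8.31 FPKM in sunlight. CL7072.Contig1 had 17.03, 53.1 and 845 FPKM under shading, and CL7072.Contig3 had 17.8, 54.3 and 769. Over the 4 libraries edgeR did not call them (adjusted p = 0.185 and 0.161), while DESeq2 called CL7072.Contig3 (adjusted p = 0.000135) and not CL7072.Contig1 (adjusted p = 0.223). The most abundant carbonic anhydrase, Unigene7377, had a log2 fold change of 0.13 ± 0.46 and was not called. Serine hydroxymethyltransferase, which makes serine in photorespiration, was higher in 18 and lower in 2 of 20 unigenes tested, with a median of 0.25. Many of these unigenes are contigs of the same clusters, so they are not independent. At an unadjusted p under 0.05 there were 2 (10%, all unigenes 14.9%). Over the 6 libraries 0 lay above all sunlight libraries in every shading library (all unigenes 6.67%) and 1 lay below (5.26%, all unigenes 7.28%). CP12, a small protein that binds chloroplast GAPDH and phosphoribulokinase, was lower in both unigenes tested, with a median of −0.51, neither at an unadjusted p under 0.05.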

How the data were processed

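RNA from leaves was sequenced as stranded mRNA libraries on 1 lane of an Illumina HiSeq instrument. After trimming, the authors assembled the reads de novo with Trinity, merged redundant sequences with TGICL and Phrap, and annotated the unigenes with Blast. They deposited for each unigene the raw count of uniquely aligned fragments and the FPKM. The aligner, and whether counting used the strand, are not given in the sources used here, so reads of overlapping antisense transcripts cannot be told apart. The deposited counts went through filterByExpr and TMM scaling, and differences were tested by edgeR 4.0.16 (quasi-likelihood; R 4.3.3) with Benjamini-Hochberg adjustment over all unigenes. In edgeR the stricter threshold of the study (adjusted p 0.001 and a 2-fold change) also called 0 members, and 0 of all unigenes, over 4 and over 6 libraries. The study itself applied this threshold with DESeq and reported genes that passed it. With DESeq2 this count was not made here. CL7072.Contig2, a carbonic anhydrase outside the members, had a DESeq2 adjusted p of 3.45e-45 over the 4 libraries. Standard errors were taken from the fold change and the F statistic. A line with no usable unigene values was left out.

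Alternatives were DESeq2 1.42.0, no filter, limma 3.58.1 on log2(FPKM + 0.5) and log2(FPKM + 1), leaving out each library, the replicate number as a block, and FPKM in place of normalised CPM. Leaving out the members that match rice, an alga or an oomycete was added after the data had been seen. Programs were tested on simulated counts. Figures and summaries used Python 3.11.15, numpy 2.4.6, pandas 2.3.3 and matplotlib 3.10.9.

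The members and lists were chosen with earlier results of these data known. Named unigenes were those called at an adjusted p of 0.05 by edgeR over 4 or 6 libraries or by DESeq2 over 4, the most abundant of each enzyme group, and those with a mean FPKM of at least 5 whose groups did not overlap, up to 10 in each direction by log2 fold change. This gave 30 members. Others are named for their level, for a small count or for a range, and were chosen after their values were seen. Enzyme groups were set by annotation, with compartments from Swiss-Prot, after the annotation had been read. A count of 0 allows up to 3 counts. This corresponds to between 0.160 (Y+S1) and 0.299 (Y3) CPM and covers counting error only. Y1 had 12488215 counted fragments, Y2 10780376, Y+S2 13661010 and Y+S3 11193435.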

Additional observations from a re-analysis of the deposited data

How the results depend on the processing

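Members called over the 4 libraries numbered 0 in edgeR, 5 with DESeq2, 7 without the filter on low counts (4.93% of 142 members, all unigenes 0.757%), and 0 to 22 when 1 library was left out. The 22 were found without Y+S1, 15 without Y+S2 and 0 without Y2 or without Y3, where 0 of all unigenes were called. The median log2 fold change of the members was 0.03, and −0.35 (without Y+S1) to 0.095 (without Y+S2) when 1 library was left out. Over the 6 libraries 0 members were called by edgeR, 1 by DESeq2, and 0 without any single library, and the median of −0.10 ranged from −0.39 (without Y+S1) to 0.0070 (without Y+S3). Limma on FPKM called 0 members over 4 and over 6 libraries. By FPKM in place of normalised CPM, 3 members in place of 5 (all unigenes 4.07%) were higher in every shading library and 12 in place of 9 (all unigenes 7.83%) were lower. Without the filter, by normalised CPM, 7 were higher (all unigenes 6.96%) and 11 lower (all unigenes 5.58%).

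The replicate block over the 6 libraries called 0 members, with a median of −0.17. For same-numbered libraries the correlations of their deviations from the group means were −0.40 for number 1, 0.01 for number 2 and −0.49 for number 3. The highest correlation between a sunlight and a shading library was 0.44, for Y1 and Y+S3. These 2 libraries stand apart within their groups and bear different numbers, so the correlations cannot show whether the numbers pair the plants. The 4 libraries share only 1 number, and no block was fitted there. Across the named unigenes, which edgeR did not call, 513 values under alternatives stayed uncalled, 27 passed the threshold that edgeR did not reach, and 0 turned direction with a call. Uncalled values were not required to keep their direction, and some changed sign. For example, CL11672.Contig1 had a log2 fold change of 0.20 over the 4 libraries and −0.36 without Y+S1. Unigenes under about 10 counts, as in most rice-matched members, allow no statement on a difference smaller than the floor of 3 counts.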
